A study of Rattus norvegicus with 8 samples.

Results

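The genes described here are a module of 35 genes of fatty acid oxidation and of the response to the nuclear receptor PPAR alpha, and they were read in fetal rat testis after exposure of the dam to dibutyl phthalate (DBP), a plasticizer. The genes were listed by name, and each was represented by the probe set that carried its symbol alone and had the highest mean over all 8 arrays. By this rule 34 of the 35 genes were measured, of 14217 genes in all. The remaining gene, Acaa1a, had a probe set that it shares with Acaa1b, and its value is given apart. The exposed group was 4 testis samples of male Fischer 344 rat fetuses whose dams had received 50 mg/kg of DBP in corn oil, and the vehicle group was 4 samples of the same strain, sex and age whose dams had received corn oil alone at the same volume, 1 ml/kg. Both groups were dosed by gavage once a day over gestational days 12 to 20, and whole testes were taken 6 h after the last dose. The labels name no dam or litter and do not say whether testes were pooled, so a p-value reflects only how far these samples differ from each other, and that spread may be technical.

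PPAR alpha, PPAR delta and PPAR gamma are ligand-activated transcription factors that pair with retinoid X receptors and bind a repeat of the letters AGGTCA near their target genes. In liver of rats and mice, phthalate monoesters and fibrate drugs are known to activate PPAR alpha, which raises genes of peroxisomal and mitochondrial fatty acid oxidation. A fatty acid is first joined to coenzyme A, carried into the mitochondrion as a carnitine ester, and then shortened in cycles by a dehydrogenase, a hydratase, a second dehydrogenase and a thiolase, while very long chains are shortened in peroxisomes.

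Of the 35 genes, 26 had a promoter window in the RefSeq table (build GRCr8), which spans 250 bases before to 50 after the start of the gene. A direct repeat of AGGTCA with any 1 base N between the copies, searched on both strands, was found in the windows of 0 of these 26 genes and in 0.0538% of all 33469 windows. A single AGGTCA, which by construction also lies within every such repeat, was found on either strand in 6 of the 26 genes (23.1%), against 16.2% of all windows. These are matches of letters and do not show binding. The exact repeat is so rare over all windows that its count of 0 among 26 genes carries no information on the module. Repeats with other letters, or outside the window, were not searched. Windows are printed for Hao2, the 1 gene of the module past the threshold, and for Ucp3, which holds 2 copies of AGGTCA, shown in capitals. Acadvl, with a log2 change of -0.03 (DBP minus vehicle), also holds 2 copies, and its window is not printed. The window of Hadha is printed because its gene and Hadhb, for the other subunit of the same enzyme complex, lie head to head with starts 301 bases apart, and its capitals mark the 200 bases that the windows of both genes share.
Hao2, chr2:188913084-188913383, minus strand: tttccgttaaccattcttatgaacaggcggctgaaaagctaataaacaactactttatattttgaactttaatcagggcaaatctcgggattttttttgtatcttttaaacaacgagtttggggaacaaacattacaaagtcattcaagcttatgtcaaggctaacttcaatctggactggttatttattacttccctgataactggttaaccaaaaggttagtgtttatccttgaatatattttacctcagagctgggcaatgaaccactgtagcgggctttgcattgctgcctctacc
Ucp3, chr1:164227660-164227959, plus strand: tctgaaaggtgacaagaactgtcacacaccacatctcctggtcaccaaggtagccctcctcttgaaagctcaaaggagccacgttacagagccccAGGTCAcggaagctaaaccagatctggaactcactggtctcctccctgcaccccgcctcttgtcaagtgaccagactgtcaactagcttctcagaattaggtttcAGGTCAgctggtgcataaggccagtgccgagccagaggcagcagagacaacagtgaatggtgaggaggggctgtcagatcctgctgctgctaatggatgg
Hadha, chr6:31907551-31907850, plus strand: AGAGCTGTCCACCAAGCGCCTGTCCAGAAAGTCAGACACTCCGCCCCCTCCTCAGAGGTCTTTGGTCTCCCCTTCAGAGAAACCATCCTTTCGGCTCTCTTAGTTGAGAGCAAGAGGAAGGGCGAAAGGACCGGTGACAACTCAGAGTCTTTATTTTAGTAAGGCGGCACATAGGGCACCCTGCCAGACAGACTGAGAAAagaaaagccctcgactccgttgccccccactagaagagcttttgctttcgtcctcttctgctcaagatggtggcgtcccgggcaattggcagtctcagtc

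The arrays had median log2 values of 6.08 to 6.13 and pairwise correlations of at least 0.991, and RNA integrity numbers were 8.6 to 8.8. Bacterial poly-A control transcripts, spiked in ahead of labelling, read 4.64 and 4.60 (mean log2) in DBP replicates 3 and 4, against 6.28 to 6.72 in DBP replicates 1 and 2 and 6.10 to 6.38 in vehicle, so leading results are also given for each pair of DBP arrays. The testis label fitted its markers: Amh of Sertoli cells had a mean log2 value of 12.62 in DBP and 12.66 in vehicle samples, and Cyp17a1 of Leydig cells 12.60 and 12.64, while Adipoq of fat cells had 4.30 and 4.19 and Ckm of skeletal muscle 4.86 and 4.64. Sox9 of Sertoli cells and Dazl of germ cells were not analysed here. Of all 7 Leydig markers 0 passed, 4 had an unadjusted p under 0.05 in limma, and 4 had groups that did not overlap. For 7 Sertoli markers these counts were 0, 4 and 2. Of all genes, 19.1% had such a p and 12.9% had groups that did not overlap. Insl3 (-0.34), Lhcgr (-0.21) and Vsnl1 (-0.70) of Leydig cells and Inhbb (-0.35) of Sertoli cells were lower in every DBP sample than in any vehicle sample. Hsd3b1 (0.17) of Leydig cells and Aard (0.24) of Sertoli cells were higher in every DBP sample than in any vehicle sample. Cst12 (0.46) and Ptgds (0.26) of Sertoli cells lay higher with overlapping groups. Erythroid markers also differed between the pairs of DBP arrays. The summed log2 signal of 7 was 14.52 and 14.54 in DBP replicates 1 and 2, and 14.26 and 14.36 in replicates 3 and 4. In vehicle samples it was 14.23 to 14.41. Alas2 among them read 11.18 and 11.14, then 10.32 and 10.30, against 10.26 to 10.76 in vehicle samples. Of the 7, 0 passed, and 7 lay higher in DBP samples, against 57.3% of all genes. The part of these testis and erythroid markers in the values of the module was not tested. The threshold used throughout is a Benjamini-Hochberg adjusted p below 0.05 in limma, and 331 of 31042 probe sets (1.07%) passed it, of which 130 lay higher and 201 lower in DBP samples. Shifting every array to the same median gave 158 higher and 159 lower of 317.

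Among the 34 measured genes, 1 rose after DBP, Hao2, and 0 fell, in limma with adjustment over all probe sets. The share of all genes past that threshold was 1.22%, so a count of 1 in 34 is near the background. An unadjusted p under 0.05 was seen for 6 genes that lay higher, against 11.3% of all genes, and for 2 that lay lower, against 7.84%. That makes 8 of 34 (23.5%) in either direction, where 19.1% of all genes did so. The groups did not overlap for 7 of the 34 (20.6%), against 12.9% of all genes. The median log2 change of the module was 0.01, against 0.02 over all genes, with 18 genes above 0 and 16 below, and 57.3% of all genes lay above 0. The 95% interval lay within 0.5 log2 units of 0 for 32 of the 34 genes (94.1%) and for 93.5% of all genes, the exceptions being Hao2 and Fabp4.

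**Figure D1:**
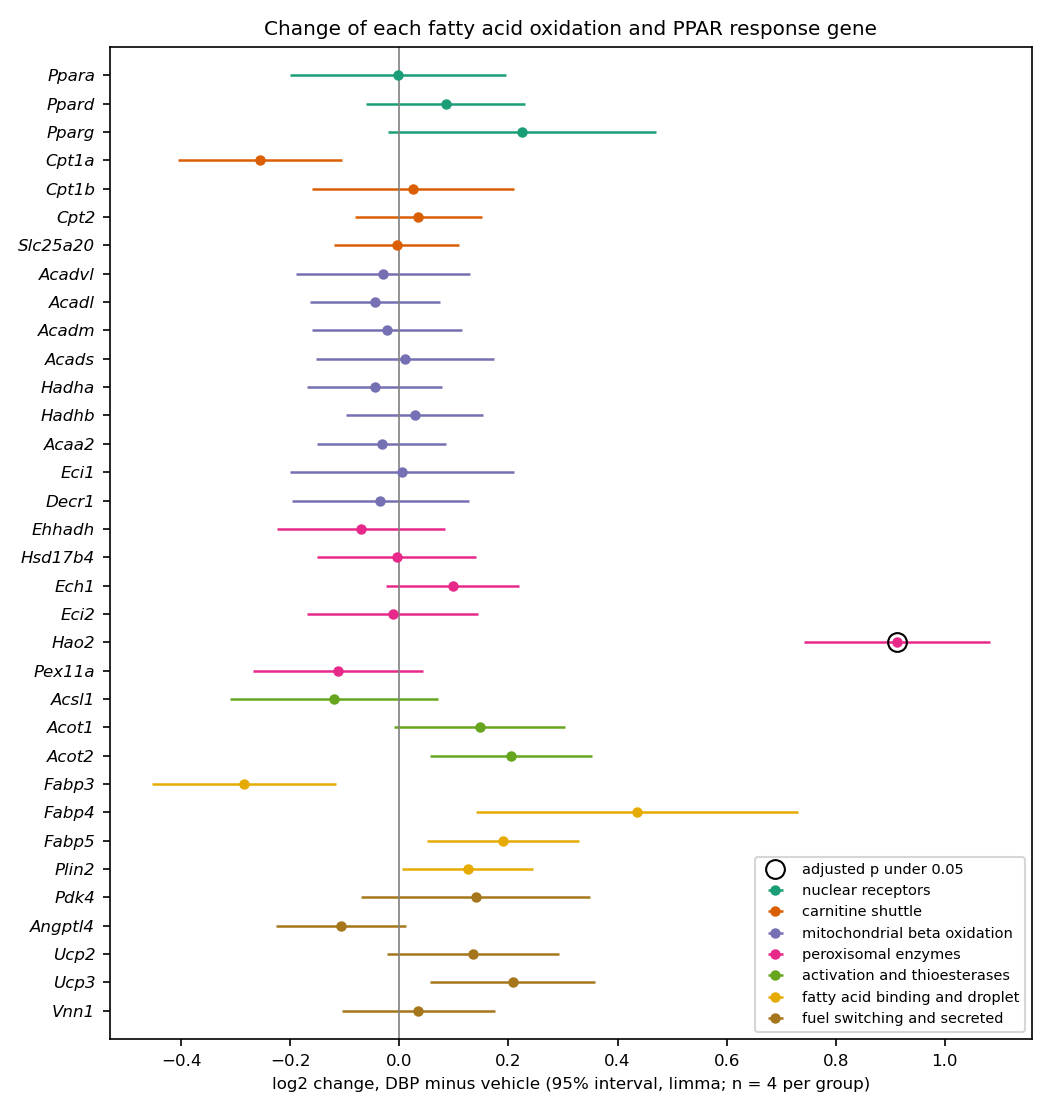
Log2 change (DBP minus vehicle) of each measured gene with its 95% interval from limma, 4 samples per group, coloured by role. Hao2 at 0.91 stands alone on the right and is the only gene circled as past the adjusted threshold, while the mitochondrial beta oxidation genes lie between -0.05 and 0.03.

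Hao2 encodes a peroxisomal hydroxyacid oxidase that acts on medium and long chain 2-hydroxy acids. Its log2 signal was 8.35, 8.35, 8.03 and 8.24 in DBP replicates 1 to 4, against 7.31, 7.28, 7.37 and 7.36 in vehicle replicates 1 to 4. Every DBP sample lay above every vehicle sample, and the lowest DBP value was that of replicate 3. The rise was 0.91 on the log2 scale with an SE of 0.077 and a 95% interval of 0.74 to 1.08, which is 1.88-fold (limma, adjusted p = 0.00118). It was 1.02 in DBP replicates 1 and 2 alone (adjusted p = 0.000925) and 0.81 in replicates 3 and 4 alone (adjusted p = 0.00414). Across all alternatives, each array left out in turn included, the change of Hao2 ran from 0.81 to 1.02 with adjusted p between 0.000215 and 0.038. The gene had 1 probe set, so no second probe set checks it. Hao2 is known to be abundant in rat kidney. Of 10 kidney and mesonephric duct markers 5 lay higher, against 57.3% of all genes. Among the 10, 0 passed and 2 had an unadjusted p under 0.05, against 19.1% of all genes. The summed signal of the 10 was 8.52 to 8.79 in DBP and 8.48 to 8.63 in vehicle samples on the log2 scale. Mean signals lay below the median of all probe sets for 8 of the 10. Those with an unadjusted p under 0.05 were Pax8, with means of 6.92 in DBP and 6.66 in vehicle samples (limma, adjusted p = 0.205), and Slc22a6, a transporter of the proximal tubule, with 4.97 and 4.80 and no overlap of the groups (adjusted p = 0.183). Slc34a1, Lrp2 and Cubn, also of the proximal tubule, had 4.38, 5.54 and 6.24 in DBP and 4.22, 5.64 and 6.27 in vehicle samples. Umod and Slc12a1, of the thick ascending limb, had 4.16 and 3.04 in DBP and 4.06 and 3.04 in vehicle samples. Their part in the rise of Hao2 was not tested, and in whole testis a different number of cells of a type and a different amount of RNA per cell cannot be told apart.

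The other 5 peroxisomal genes with a probe set of their own did not pass, and none of the 5 had an unadjusted p under 0.05. Ehhadh, the bifunctional hydratase and dehydrogenase that is a classical liver target of PPAR alpha, had a signal of 3.94 to 4.01 in DBP and 3.93 to 4.16 in vehicle samples, a log2 change of -0.07 (95% interval -0.22 to 0.08). Hsd17b4, the D-specific counterpart of that enzyme, read 10.06 to 10.31 in DBP and 10.14 to 10.21 in vehicle samples, a change of -0.005 (-0.15 to 0.14). For both enzymes of this step the ranges of the groups overlapped. Eci2, a peroxisomal enoyl-CoA isomerase, had a change of -0.01 (-0.17 to 0.15). Ech1, a dienoyl-CoA isomerase of peroxisomes and mitochondria, was 11.66 to 11.77 in DBP and 11.57 to 11.67 in vehicle samples, a change of 0.10 (-0.02 to 0.22), with all 4 DBP samples above the vehicle mean. Pex11a, a membrane protein that drives peroxisome division, had a change of -0.11 (-0.27 to 0.04), with all 4 DBP samples below the vehicle mean. Its dimmer probe set gave -0.04. With each array left out, the change of Pex11a ran from -0.144 to -0.064, the latter without DBP replicate 2. The probe set listed for both Acaa1b and Acaa1a, the peroxisomal thiolases, read 8.01, 8.19, 8.26 and 8.12 in DBP and 8.10, 8.02, 8.07 and 8.02 in vehicle samples. Its change was 0.09 (-0.05 to 0.24) with overlapping groups, and it cannot separate the genes.

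The mitochondrial beta oxidation enzymes were the role with the narrowest range of changes. Of 9 genes 0 passed in limma and 0 had an unadjusted p under 0.05. Their log2 changes ran from -0.05 to 0.03, and the widest interval bounds were -0.20 and 0.21, so the representing probe sets allow at most a 1.16-fold difference for any of the 9. Over all probe sets of these genes, the dimmer ones included, the widest bound was 1.30-fold, from the second probe set of Eci1. The acyl-CoA dehydrogenases, which open each cycle, are ordered by the chain length they take. Acadvl, for very long chains, had a mean of 8.02 ± 0.12 in DBP and 8.05 ± 0.070 in vehicle samples (SD, n = 4 per group). Acadl, for long chains, averaged 10.05 ± 0.033 and 10.10 ± 0.049, Acadm, for medium chains, 9.39 ± 0.080 and 9.41 ± 0.062, and Acads, for short chains, 8.52 ± 0.13 and 8.50 ± 0.072. The differences of all 4 were smaller than the SD of at least 1 of their groups. The windows of Hadha and Hadhb share the stretch between their starts that is marked above. These genes, for the alpha and beta subunits of the trifunctional protein, had changes of -0.05 (-0.17 to 0.08) and 0.03 (-0.10 to 0.15). The sign of the change differed between these subunits, and both intervals contain 0. Acaa2, the mitochondrial thiolase that closes the cycle, read 11.13 to 11.24 in DBP and 11.21 to 11.23 in vehicle samples.

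Eci1 and Decr1, the isomerase and reductase that prepare unsaturated fatty acids, spread more within the DBP group. Eci1 was 9.99, 9.68, 10.17 and 9.89 in DBP replicates 1 to 4, against 9.95, 9.89, 9.97 and 9.90 in vehicle replicates 1 to 4. Decr1 was 9.31, 9.13, 9.47 and 9.24 in DBP and 9.33, 9.32, 9.30 and 9.34 in vehicle samples. In both genes DBP replicate 3 was the highest sample of the 8 and DBP replicate 2 the lowest, with the vehicle samples between them. The SD was larger in DBP than in vehicle samples for 8 of the 9 enzymes and for 79.9% of all genes. The dimmer probe set of Eci1 gave 0.20 (0.03 to 0.38) with all 4 DBP samples above the vehicle mean, without passing (limma, adjusted p = 0.225), that of Acaa2 gave 0.14 (-0.05 to 0.33), and those of Hadha gave -0.12 and 0.07.

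**Figure D2:**
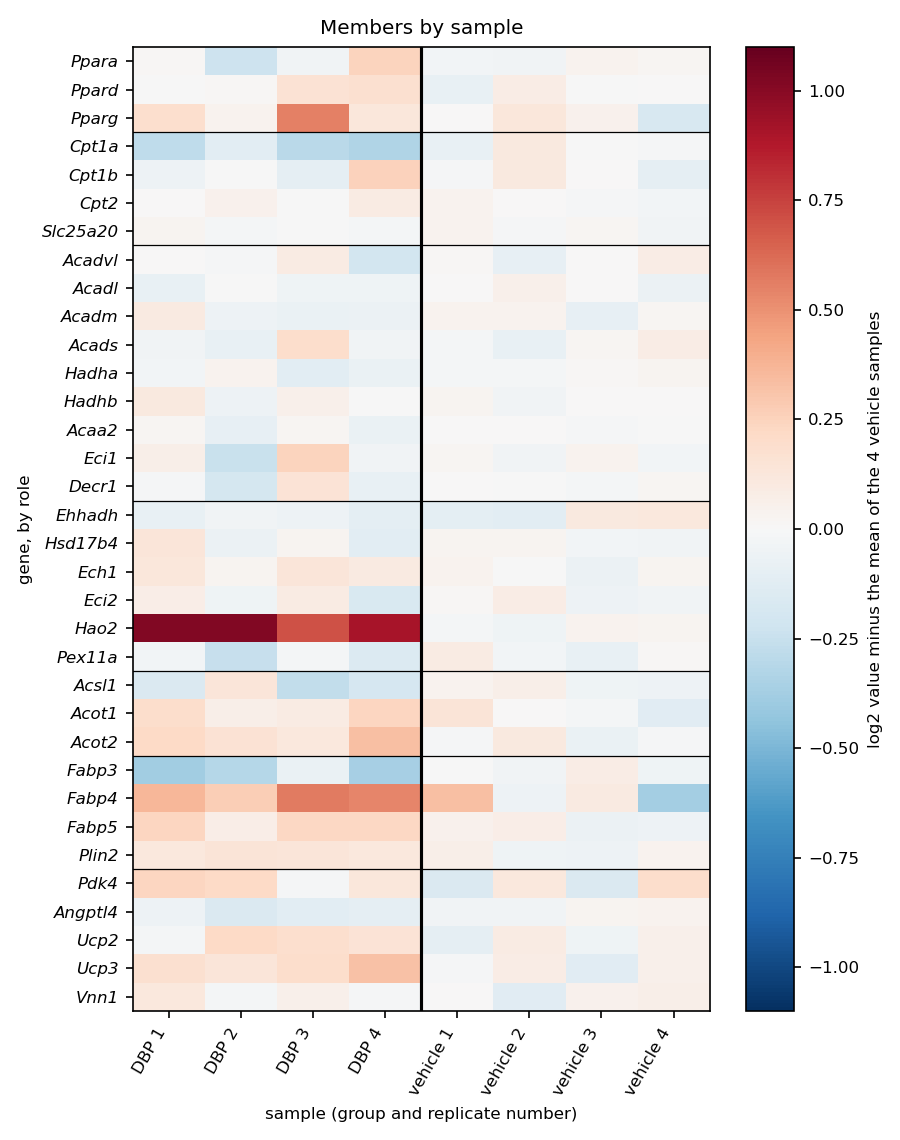
Log2 signal of each measured gene in each of the 8 samples minus the mean of the 4 vehicle samples, with DBP samples left and vehicle samples right of the vertical line and horizontal lines between roles. Hao2 is raised in all 4 DBP samples, Cpt1a and Fabp3 are below the vehicle mean in all 4, and Eci1 and Decr1 are highest in DBP replicate 3 and lowest in DBP replicate 2.

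The carnitine shuttle brings long chains into the mitochondrion, and Cpt1a, which encodes the liver type of carnitine palmitoyltransferase 1, performs its rate-limiting step. Cpt1a had signals of 10.08, 10.24, 10.06 and 10.02 in DBP samples, against 10.27, 10.46, 10.35 and 10.34 in vehicle samples. The groups did not overlap, though DBP replicate 2 came within 0.03 of vehicle replicate 1. The log2 change was -0.26 with an SE of 0.068 (95% interval -0.41 to -0.11), which did not pass over all probe sets (limma, adjusted p = 0.11). It was -0.20 in DBP replicates 1 and 2 alone (adjusted p = 0.247) and -0.32 in replicates 3 and 4 alone, where it passed (adjusted p = 0.0277), as it did without DBP replicate 2 (-0.30, adjusted p = 0.0491). The second probe set of Cpt1a also gave -0.26 with 3 of 4 DBP samples below the vehicle mean (adjusted p = 0.258). The other 3 genes of the shuttle had intervals that contain 0. Cpt1b, the muscle type of the same enzyme, had a change of 0.03 (-0.16 to 0.21), Cpt2 of the inner membrane one of 0.04 (-0.08 to 0.15), and Slc25a20, the carnitine-acylcarnitine exchanger, one of -0.005 (-0.12 to 0.11).

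Among the genes that activate fatty acids or release them from coenzyme A, 0 of 3 passed and 1 had an unadjusted p under 0.05. Acot2, a mitochondrial thioesterase that releases free fatty acids, was 8.27, 8.21, 8.17 and 8.39 in DBP and 8.04, 8.16, 7.98 and 8.04 in vehicle samples. Every DBP sample of Acot2 lay above every vehicle sample, by 0.01 at the closest. The change was 0.21 (95% interval 0.06 to 0.35; limma, adjusted p = 0.166), and the other 2 probe sets of the gene gave 0.22 and 0.13. Acot1, the cytosolic thioesterase, whose start lies 24434 bases from that of Acot2 on chromosome 6 (GRCr8), was 6.33 to 6.50 in DBP and 6.14 to 6.40 in vehicle samples, a change of 0.15 (-0.01 to 0.30). The Acot genes are close copies of each other, so their probe sets may read each other's transcripts. Acsl1, a long-chain acyl-CoA synthetase, had a change of -0.12 (-0.31 to 0.07), with DBP replicate 2 above every vehicle sample and the other 3 DBP samples below them, and its other probe sets gave -0.005 and 0.08. The change of Acsl1 was -0.205 without DBP replicate 2 and -0.068 without DBP replicate 3.

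The fatty acid binding proteins, which carry fatty acids through the cytosol, and the droplet coat protein Plin2 were the only role in which every gene had an unadjusted p under 0.05. Such a p was seen for 19.1% of all genes. With 4 genes the count is small, 0 of the 4 passed over all probe sets, and 3 lay higher and 1 lower. Fabp3, the heart type, was 11.27, 11.34, 11.58 and 11.29 in DBP and 11.65, 11.62, 11.74 and 11.61 in vehicle samples. The groups did not overlap, with DBP replicate 3 close to the vehicle range. The change was -0.29 with an SE of 0.076 (95% interval -0.45 to -0.12; limma, adjusted p = 0.111). It was -0.35 in DBP replicates 1 and 2 alone, where it passed (adjusted p = 0.034), and -0.22 in replicates 3 and 4 alone (adjusted p = 0.126), and without DBP replicate 3 it was -0.36 (adjusted p = 0.0338). Fabp5, the epidermal type, lay the other way, at 11.30, 11.14, 11.29 and 11.29 in DBP and 11.11, 11.14, 11.00 and 11.01 in vehicle samples. DBP replicate 2 equalled the highest vehicle sample, and the change was 0.19 (0.05 to 0.33; adjusted p = 0.168).

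Fabp4, the adipocyte type, is also made by capillary endothelium and macrophages. It was 4.76, 4.66, 4.96 and 4.93 in DBP and 4.72, 4.34, 4.49 and 4.02 in vehicle samples. All 4 DBP samples lay above the vehicle mean, but vehicle replicate 1 lay above DBP replicate 2. The change was 0.44 (0.14 to 0.73; limma, adjusted p = 0.143), at a mean signal below 5. Beside it, 6 of 6 adipocyte markers lay higher with a summed log2 signal of 6.66 to 6.94 in DBP and 6.60 to 6.74 in vehicle samples, and all 6 had mean signals below the median of all probe sets. Of 8 endothelial markers 5 lay higher and 1 passed, with sums of 11.06 to 11.20 in DBP and 11.02 to 11.06 in vehicle samples, and of 10 macrophage markers 9 lay higher, with sums of 10.20 to 10.46 and 10.20 to 10.32. Each of these lists held 2 markers with an unadjusted p under 0.05. Of all genes, 57.3% lay above 0 and 19.1% had such a p. The part of these markers in the values of Fabp4 was not tested. Plin2, which coats lipid droplets, was 9.89, 9.92, 9.91 and 9.89 in DBP and 9.84, 9.73, 9.72 and 9.82 in vehicle samples. The DBP samples of Plin2 lay close together above all vehicle samples, the change was 0.13 (0.005 to 0.25; adjusted p = 0.259), and the dimmer probe set of the gene gave -0.25 (adjusted p = 0.318).

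**Figure D3:**
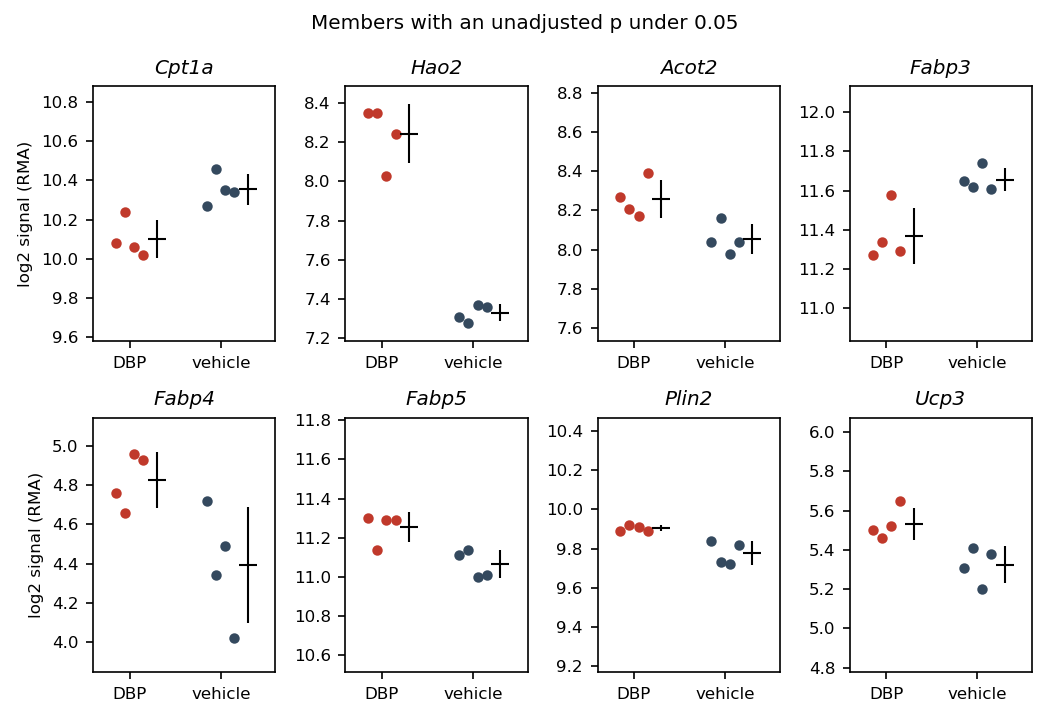
Log2 signal (RMA) of the 8 genes with an unadjusted p under 0.05, as 1 point per sample, DBP left and vehicle right, with the mean and SD beside each group. Hao2 separates by 0.66 between the lowest DBP and the highest vehicle sample, whereas Fabp4 and Fabp5 meet or overlap between the groups.

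Genes of fuel switching and of secreted or surface products of the PPAR response gave 0 of 5 past the threshold and 1 with an unadjusted p under 0.05. Ucp3, a mitochondrial carrier of muscle and brown fat that PPAR alpha raises in muscle, was 5.50, 5.46, 5.52 and 5.65 in DBP and 5.31, 5.41, 5.20 and 5.38 in vehicle samples. Every DBP sample of Ucp3 lay above every vehicle sample. The change was 0.21 (0.06 to 0.36; limma, adjusted p = 0.165) and its second probe set gave 0.25, both at signals below the median of all probe sets. Of 8 skeletal muscle markers 6 lay higher, against 57.3% of all genes. Among the 8, 0 passed and 2 had an unadjusted p under 0.05, against 19.1% of all genes. The summed signal of the 8 was 8.02 to 8.21 in DBP and 7.92 to 8.02 in vehicle samples. Mean signals lay at or below the median of all probe sets for 7 of the 8. The part of these markers in the values of Ucp3 was not tested. Ucp2, the neighbouring and more widely expressed carrier, had a change of 0.14 (-0.02 to 0.29).

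Pdk4, the kinase that shuts off pyruvate dehydrogenase when fat is burned, is among the most PPAR-responsive genes of many tissues. It was 6.32, 6.30, 6.07 and 6.21 in DBP and 5.93, 6.20, 5.93 and 6.28 in vehicle samples. The vehicle samples split into a higher and a lower pair, the groups overlapped, and the change was 0.14 (-0.07 to 0.35), while the dimmer probe set gave -0.05. With each array left out, the change of Pdk4 ran from 0.088, without vehicle replicate 1 or 3, to 0.205, without vehicle replicate 4. Across all alternatives it ran from 0.048 to 0.23. Angptl4, a secreted inhibitor of lipoprotein lipase and a target of all 3 PPARs, was 9.69, 9.59, 9.63 and 9.65 in DBP and 9.71, 9.71, 9.78 and 9.79 in vehicle samples. Its groups did not overlap, at a change of only -0.11 (-0.23 to 0.01; limma, adjusted p = 0.314). Vnn1, a surface pantetheinase raised by PPAR alpha in liver, had a change of 0.04 (-0.11 to 0.18).

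The receptors themselves gave 0 of 3 past the threshold and 0 with an unadjusted p under 0.05. Ppara read 4.10, 3.86, 4.05 and 4.33 in DBP and 4.06, 4.05, 4.13 and 4.11 in vehicle samples, a change of -0.002 (-0.20 to 0.20). The vehicle samples lay inside the range of the DBP samples. Pparg read 4.18, 4.03, 4.55 and 4.12 in DBP and 4.0, 4.12, 4.04 and 3.82 in vehicle samples, with DBP replicate 3 the highest. Its change was 0.23 (-0.02 to 0.47) and did not pass (limma, adjusted p = 0.307). With each array left out, the change of Pparg ran from 0.115, without DBP replicate 3, to 0.288. Ppara and Pparg had means below 5, as did Ehhadh and Fabp4, and the deposited values carry no detection calls, so weak expression and background cannot be told apart for these 4 genes. Ppard, the widely expressed receptor, was 6.80 to 6.98 in DBP and 6.72 to 6.89 in vehicle samples, a change of 0.09 (-0.06 to 0.23), and its dimmer probe set gave -0.06.

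A wider list of 96 genes of the same pathway, of which 89 were measured, gave 2 genes that rose and 0 that fell in limma. That is 2.25% of the list against 1.22% of all genes, and 14 of the 89 (15.7%) had an unadjusted p under 0.05, against 19.1% of all genes. Acsl4, an acyl-CoA synthetase that prefers arachidonic acid and has a known role in steroid-producing cells, was 9.97, 10.01, 9.67 and 9.83 in DBP and 9.28, 9.21, 9.27 and 9.24 in vehicle samples. Every DBP sample lay above every vehicle sample, and the rise was 0.62 with an SE of 0.077 (1.54-fold; adjusted p = 0.0062), 0.74 in DBP replicates 1 and 2 alone and 0.50 in replicates 3 and 4 alone. With ordinary t statistics Acsl4 missed the threshold (adjusted p = 0.0691), as did Mgll (adjusted p = 0.108). Mgll, the lipase that splits monoacylglycerols, was 6.86, 6.86, 6.69 and 7.09 in DBP and 6.04, 6.24, 6.25 and 6.38 in vehicle samples. Its groups did not overlap either, and the rise was 0.65 with an SE of 0.095 (1.57-fold; adjusted p = 0.0126). The 3 dimmer probe sets of Mgll gave 0.26, 0.32 and 0.13, none past the threshold, and the mean over all its probe sets gave 0.34 (adjusted p = 0.107). Mgll also missed the threshold without vehicle replicate 3 (0.655, adjusted p = 0.0548).

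The other named genes of the wider list, those with the smallest unadjusted p in each group of it, did not pass with all 8 arrays. With DBP replicates 3 and 4 alone, 5 of them passed in limma: Ppargc1a at 0.385 (adjusted p = 0.0241), Creb3l3 at 0.562 (0.0109), Slc27a2 at 0.392 (0.0249), Bdh1 at -0.415 (0.0223) and Acot8 at 0.285 (0.04). In that setting 13 of the 89 genes of the list passed, and 4129 of all 31042 probe sets. The named genes were chosen by p-values of a fit that includes these arrays. With DBP replicates 1 and 2 alone, where 577 of all probe sets passed, Creb3l3 and Slc27a2 were each at 0.122, and 0 of the 5 passed. Among PPAR partners and coregulators, 0 of 13 passed and 3 had an unadjusted p under 0.05, against 19.1% of all genes. Ppargc1a, the coactivator of mitochondrial genes, had a change of 0.29 (limma, adjusted p = 0.131). Creb3l3, a partner of PPAR alpha in liver, had one of 0.34 (adjusted p = 0.185). Both had all 4 DBP samples above the vehicle mean and overlapping groups. The dimmer probe sets of Ppargc1a gave -0.05 and 0.16, and the mean over all its probe sets gave 0.13 (limma, adjusted p = 0.239). Ppargc1a and Creb3l3 had mean signals below 5, where weak expression and background cannot be told apart. For uptake and activation 1 of 16 passed, Acsl4, and Slc27a2, a fatty acid transporter and very long chain synthetase, had a change of 0.26 (adjusted p = 0.188). Of 14 further mitochondrial and ketone body genes 0 passed and 2 had an unadjusted p under 0.05, against 19.1% of all genes. The first was Bdh1, the ketone body dehydrogenase, at -0.33 (limma, adjusted p = 0.0928, and 0.0487 without DBP replicate 2). The other was Acad10, an acyl-CoA dehydrogenase family member, at -0.19 (adjusted p = 0.175). The groups of both did not overlap, as for 12.9% of all genes.

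Of 27 further genes of peroxisomes and omega oxidation 0 passed and 3 had an unadjusted p under 0.05, against 19.1% of all genes. They include Acot8, the peroxisomal thioesterase, at 0.25 (limma, adjusted p = 0.104), and Nudt7, a peroxisomal coenzyme A hydrolase, at -0.20 (adjusted p = 0.253). Of 13 droplet and lipolysis genes 1 passed, Mgll, and Hilpda, an inhibitor of the lipase that starts droplet breakdown, had a change of -0.25 (adjusted p = 0.141) without overlap of the groups. Of 6 further fuel switching genes 0 passed and 0 had an unadjusted p under 0.05, with Pdk1 at -0.25 (adjusted p = 0.286) and Pdk3 at 0.12 (adjusted p = 0.335). Both encode kinases of pyruvate dehydrogenase. The second probe set of Pdk1 gave -0.21 (-0.35 to -0.06) without overlap of the groups (adjusted p = 0.162), and that of Pdk3 gave 0.16 (0.001 to 0.31; adjusted p = 0.272). With each array left out, the change of Pdk1 ran from -0.307 to -0.124, the latter without DBP replicate 4. That of Pdk3 ran from 0.081, without DBP replicate 1, to 0.161.

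**Figure D4:**
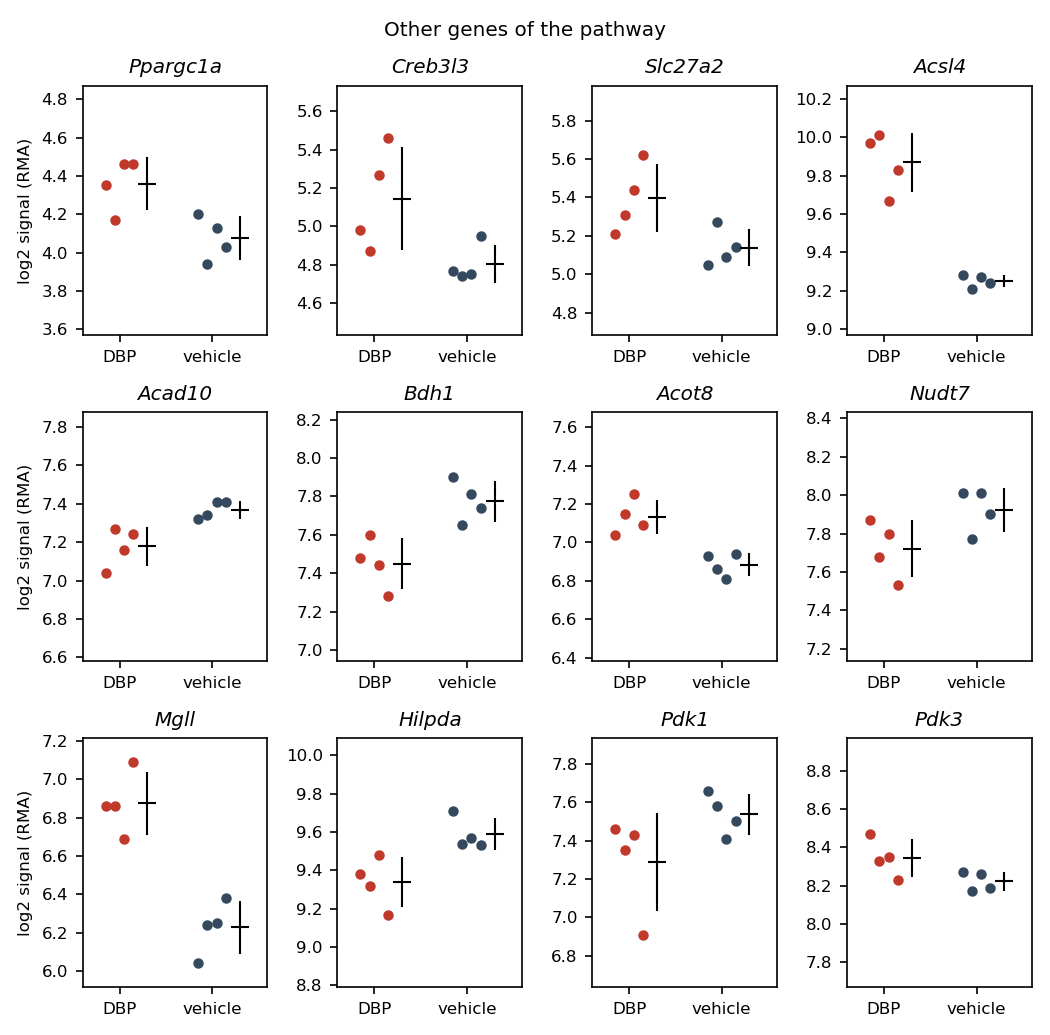
Log2 signal (RMA) of the 12 named genes of the wider pathway list, as 1 point per sample, DBP left and vehicle right, with the mean and SD beside each group. The groups are farthest apart for Acsl4 and Mgll, the 2 genes past the adjusted threshold, and overlap for Ppargc1a, Creb3l3, Slc27a2, Nudt7, Pdk1 and Pdk3.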

How the data were processed

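RMA produced the deposited log2 signals, 1 for each probe set on each array, per the submitters' processing notes, which give no version. Raw array files were not used here, so background correction could not be varied. Of 31099 probe sets, 57 Affymetrix controls were set aside and 31042 tested. By the platform annotation 1 gene symbol belonged to 20826 probe sets, several to 436 and no symbol to 9780, and a gene was read from its single-symbol probe set with the highest mean. The test of DBP against vehicle used limma 3.58.1 in R 4.3.3 (empirical Bayes, no trend, not robust), 2-sided, and p-values were adjusted by the Benjamini-Hochberg method across the whole table at a threshold of 0.05. Intervals are 95% intervals of that model, and a sum over markers is the log2 of their added linear signals. The procedure was tested on simulated data with the same SD in both groups. In the real data the SD was larger in DBP samples for 79.9% of all genes, a setting that the simulation did not cover. Every measured gene of the module was named; of the wider list, genes past the threshold and the 2 of each group with the smallest unadjusted p. Pax8, Slc22a6, Umod, Slc12a1, Lhcgr, Vsnl1, Hsd3b1, Inhbb, Aard, Cst12, Ptgds and Ncor1 fall outside this rule and were named after their values were seen. The same holds for Slc34a1, Lrp2 and Cubn. The genes, lists and alternatives were chosen with earlier results of these data known. Tables and figures were made with Python 3.11.15, pandas 2.3.3 and matplotlib 3.10.9. The number of arrays limits the precision.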

Additional observations from a re-analysis of the deposited data

Results flagged for a closer look

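In 68 groups of 4 samples, 3 had a sample whose gap to its nearest neighbour exceeded the share of the group's range that Dixon's test allows at 95%, and chance gives about 1 in 20. Acadm was 9.51 in DBP replicate 1, against 9.34 to 9.36 in the other DBP samples, and 9.32 in vehicle replicate 3, against 9.43 to 9.45 in the other vehicle samples. Fabp5 was 11.14 in DBP replicate 2, against 11.29 to 11.30 in the other DBP samples.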

How the results depend on the processing

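Hao2 kept its direction and its adjusted p under 0.05 in all 22 alternatives, which were scalings, filters, variance priors, covariates, DBP arrays by spike-in level, other probe set choices, ordinary t statistics and each array left out. The count of the module past the threshold was 2 with a trend and robust prior (Fabp3 added), 2 with DBP replicates 1 and 2 only (Fabp3 added), 2 with DBP replicates 3 and 4 only (Cpt1a added), and 1 to 2 with each array left out. That of the wider list was 13 with DBP replicates 3 and 4 only, 0 with ordinary t statistics (11 at an unadjusted p under 0.05), and 1 to 3 with each array left out, and the mean over probe sets gave 1 higher and 1 lower, Ncor1 (-0.33). The count over all probe sets was 577 with DBP replicates 1 and 2 only, 4129 with DBP replicates 3 and 4 only, 74 with ordinary t statistics and 82 to 606 with each array left out: 114, 122, 82 and 118 without vehicle replicates 1 to 4, 606 without DBP replicate 2 and 220 without DBP replicate 3. The causes were not tested. With the replicate number as a block it was 175, and the block changed no call of the module or of the wider list. The labels do not say that a number pairs samples, and deviations of same-numbered samples correlated at 0.108, -0.076, 0.097 and -0.021, so DBP replicates 2 and 4 did not correlate best with their own number.

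Signs that turned belonged to changes with an interval containing 0, except Plin2. They were, with arrays shifted to the same median, Ppara 0.020, Slc25a20 0.018, Acadm 0.0, Hsd17b4 0.018 and Eci2 0.010; with quantile normalization, Slc25a20 0.021, Acadvl 0.004, Acadm 0.006 and Hsd17b4 0.009; with the RNA integrity number, Acads -0.037 and Eci1 -0.087. With array weights they were Cpt1b -0.002, Slc25a20 0.004, Acadm 0.014, Acads -0.013, Hsd17b4 0.033 and Eci2 0.018. With the spike-in level in the model they were Cpt1b -0.020, Slc25a20 0.001, Acadm 0.014, Acads -0.029, Eci1 -0.047, Hsd17b4 0.027 and Eci2 0.008. With DBP replicates 1 and 2 only they were Cpt1b -0.030, Slc25a20 0.002, Acadm 0.022, Acads -0.060, Hadha 0.005, Eci1 -0.093, Hsd17b4 0.032 and Eci2 0.012, and with DBP replicates 3 and 4 only Ppara 0.102 and Decr1 0.032. The mean over probe sets gave Acaa2 0.053 and Plin2 -0.064. With each array left out, Acads ran from -0.052 to 0.042, Acadvl from -0.070 to 0.027, Cpt1b from -0.052 to 0.065, Decr1 from -0.096 to 0.018, Eci1 from -0.074 to 0.089, Eci2 from -0.047 to 0.039, Hsd17b4 from -0.051 to 0.033, Ppara from -0.084 to 0.073, Slc25a20 from -0.019 to 0.008 and Vnn1 from -0.006 to 0.058. Ppara, Pparg, Ehhadh, Fabp4 and, at the stricter filter, Ucp3 gave no value with the filters on dim probe sets.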

Other observations

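The spread within groups was larger in DBP than in vehicle samples for 24 of the 34 genes of the module (70.6%), where it was larger for 79.9% of all genes. The median SD over the module was 0.096 in DBP and 0.062 in vehicle samples, against 0.12 and 0.066 over all genes. Among genes of fuel switching and secreted products the SD was larger in DBP samples for 1 of 5. Relative to the vehicle mean, 20, 15, 20 and 15 of the 34 genes lay higher in DBP replicates 1 to 4, against 20, 17, 15 and 18 in vehicle replicates 1 to 4.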
